A study of Mus musculus with 4 samples.

Results

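Cells with transcripts typical of plasmacytoid dendritic cells (pDCs) were found inside a sort for T cells from B16 melanomas. They were chosen by transcripts: a barcode had at least 3 unique molecular identifiers (UMIs, each standing for 1 captured RNA molecule) of Siglech and at most 1 UMI of Cd3d, Cd3e and Cd3g together, among barcodes that showed 50 genes or more, stayed under 6000 genes and had under 15% mitochondrially encoded UMIs. Of 2827 barcodes that passed the limits on genes and mitochondrial UMIs, 739 met this rule, 123 in the ZsG- and 616 in the ZsG+ library. Siglech and the CD3 genes therefore describe how the cells were selected and are no result.

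The study followed ZsGreen (ZsG), a green fluorescent protein, from tumor cells into tumor-infiltrating immune cells. Mouse B16-F10 melanoma cells of a line grown from a single clone, with a doxycycline-inducible ZsGreen transgene, were injected under the skin of wild-type C57BL/6 mice, 250000 cells to a flank and in 1 or both flanks, and tumors were taken on day 8 after doxycycline in the drinking water. Cells positive for the leukocyte antigen CD45 and for the T cell receptor beta chain (TCRb) were sorted into a ZsG- and a ZsG+ library, and a separate sort of all CD45+ cells gave another ZsG- and another ZsG+ library. Both gates of a sort therefore came from tumors that expressed ZsG, and host mice of both gates received doxycycline. The sources used here do not give the age of the mice or how many were pooled in a library. There was 1 library per gate, so no value below describes the spread between mice, no test of a condition was possible, and every interval is a 95% interval of counting error only.

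The deposited table of the T cell sort names the ZsG+ library first and the ZsG- library second, whereas the library names number them the other way. The first library, with 2396 barcodes, was taken as ZsG+ and the second, with 1136 barcodes, as ZsG-. If the library names hold instead, every ZsG direction given for the T cell sort reverses. The 2 libraries held 22100220 and 10030971 UMIs in that order. They shared 1 cell barcode sequence, and no selected cell carried it. For T cells, the paper reports the cell cycle term as enriched in ZsG+ cells and the cytosolic ribosome term as depleted. As assigned, 5.78% of ZsG- and 13.8% of ZsG+ T cells met the cycling rule given below. Ribosomal protein genes took 30.8% of ZsG- and 28.0% of ZsG+ T cell UMIs. Which assignment holds was not tested.

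Plasmacytoid dendritic cells are a rare dendritic cell lineage that develops in the bone marrow under the transcription factor TCF4 (E2-2) and circulates to lymphoid and inflamed tissue. They sense viral and self nucleic acids in endosomes through TLR7 and TLR9 and are known for a rapid type I interferon response driven by IRF7. In tumors they are usually few, and they do not rearrange or display an alpha-beta T cell receptor.

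The genes that carry the identity of these cells were Siglech, an inhibitory lectin of mouse pDCs (GRCm38, chr7:55768178-55778925), Ccr9, the receptor for the gut and thymus chemokine CCL25 (chr9:123678439-123784330), Klk1, a tissue kallikrein protease (chr7:44225360-44229618), and Tcf4. TCF4 belongs to the E proteins, basic helix-loop-helix factors that bind the E-box CANNTG, where N is any base. The 250 bases before the RefSeq start of 3 of these genes are shown because they are the marker genes of the cells and lie where such a factor could be looked for (GRCm38.p6, plus strand, 5′ to 3′, E-boxes in capitals). The Siglech window is chr7:55767934-55768183, the Ccr9 window chr9:123766961-123767210 and the Klk1 window chr7:44225110-44225359.
Siglech: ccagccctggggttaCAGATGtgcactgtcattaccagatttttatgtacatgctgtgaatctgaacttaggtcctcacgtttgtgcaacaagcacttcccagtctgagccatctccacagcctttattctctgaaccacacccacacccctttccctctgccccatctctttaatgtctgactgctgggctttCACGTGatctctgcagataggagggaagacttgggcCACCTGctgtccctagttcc
Ccr9: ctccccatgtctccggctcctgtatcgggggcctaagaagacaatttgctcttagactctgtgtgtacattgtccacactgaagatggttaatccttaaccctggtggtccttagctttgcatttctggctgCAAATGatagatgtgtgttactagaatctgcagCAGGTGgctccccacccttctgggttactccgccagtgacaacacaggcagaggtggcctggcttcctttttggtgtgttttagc
Klk1: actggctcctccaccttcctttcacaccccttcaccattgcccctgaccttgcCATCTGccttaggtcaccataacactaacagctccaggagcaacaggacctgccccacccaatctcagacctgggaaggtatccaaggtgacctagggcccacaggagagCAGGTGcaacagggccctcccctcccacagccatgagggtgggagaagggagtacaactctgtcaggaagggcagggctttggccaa
The windows held 3, 2 and 2 E-boxes. The motif reads the same on both strands, and 66.2% of the 32851 promoter windows of this length held at least 1, so its presence does not set these genes apart. Among the 22 windows matched to 17 genes of a list of pDC surface proteins and enzymes, 17 (77.3%) held one. A match is a run of letters and not a measured binding site.

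In the T cell sort, the selected cells made up 12.97% of kept ZsG- barcodes (123 of 948, exact Clopper-Pearson interval 10.9 to 15.3%) and 32.8% of kept ZsG+ barcodes (616 of 1879, 30.7 to 34.96%). The share was 2.53-fold higher in the ZsG+ library, a log2 ratio of 1.34 (1.06 to 1.63). They also held 14.0% of the kept UMIs in the ZsG- and 28.6% in the ZsG+ library. T cells, defined as barcodes with no Siglech UMI and at least 3 CD3 UMIs, numbered 657 and 763. The selected cells were therefore almost as many as the T cells in the ZsG+ library.

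In the CD45 sort the same rule took 218 of 4862 kept ZsG- barcodes (4.48%, 3.92 to 5.10%) and 33 of 4533 kept ZsG+ barcodes (0.728%, 0.502 to 1.02%). There the share was lower in the ZsG+ library, with a log2 ratio of -2.62 (-3.20 to -2.09). As assigned, the direction was opposite between the sorts, and with the 2 libraries of the T cell sort exchanged it would be the same. Without replicates this difference could not be tested. The CD45 sort took cells bright in ZsG as positive, so the ZsG gates of the sorts are not the same. Each share depends on the gate and on how many other cells were caught, and these cannot be told apart here. T cell values for the assignment of the libraries are given where it is described.

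**Figure D1:**
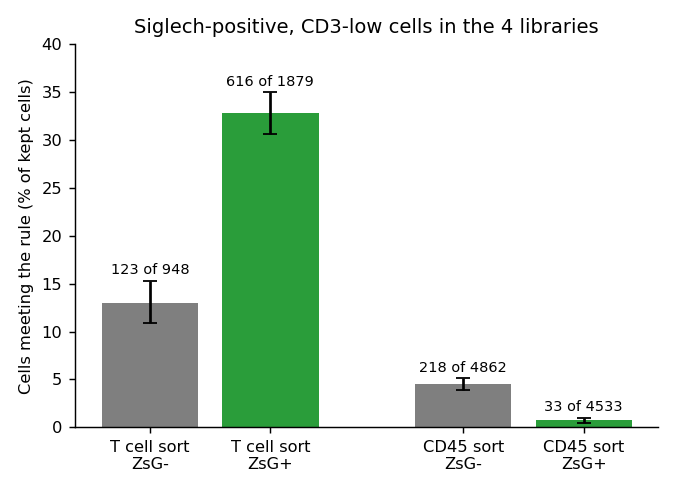
Share of kept barcodes that met the pDC rule (vertical axis, percent, starting at 0) in the ZsG- and ZsG+ libraries of the T cell sort and of the CD45 sort, with 1 library per bar and exact 95% intervals of counting error. In the T cell sort the bar is lower for ZsG- (12.97%) than for ZsG+ (32.8%), and in the CD45 sort it is higher for ZsG- (4.48%) than for ZsG+ (0.728%).

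The labels name TCRb as the surface marker of the sort, while the methods of the study name CD3 for it. The selected cells had almost no T cell receptor RNA. A UMI of Trac, Trbc1 or Trbc2, the constant regions of the receptor, was found in 8 of 123 ZsG- cells (6.50%) and in 41 of 616 ZsG+ cells (6.66%), and no selected cell had 3 or more of these UMIs, which allows shares of up to 2.44% and 0.487% by the limit used here for a count of 0, 3 cells of the total. All 657 and all 763 T cells of the same libraries had a receptor UMI. After each cell was thinned to 2000 UMIs, Trac was seen in 1.63% and 0.812% of selected cells against 66.7% and 71.4% of T cells. How these cells came through the gate was not tested.

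The other markers, which the rule did not use, pointed to pDCs. Ccr9 had a UMI in 122 of 123 ZsG- and 605 of 616 ZsG+ cells, and Tcf4 in every selected cell of both libraries. Klk1 was less uniform, with a UMI in 94 of 123 (76.4%) and 503 of 616 (81.7%) cells. At least 2 of these 3 genes were seen in 122 and 610 cells. In T cells thinned to 2000 UMIs, a UMI of Ccr9 was found in 1.07% and 0.532%, of Tcf4 in 1.53% and 1.86% and of Klk1 in 0 and 0.266%, against 87.0% and 86.4%, 95.1% and 95.3%, and 53.7% and 66.1% of selected cells. The label of the cells therefore held against its markers.

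The 10 genes highest over T cells in both libraries were Siglech, which chose the cells, then Dntt, Cdh5, Ly6d, Ptprf, Epha2, Klk1, Fcrla, Sh3bgr and Cox6a2. Dntt encodes terminal deoxynucleotidyl transferase, which adds bases to immunoglobulin and T cell receptor joints in lymphoid progenitors. It stood at 130 CPM (the UMIs of a gene summed over the selected cells of a library, per 1000000 of their UMIs) in ZsG- and 91.3 CPM in ZsG+ selected cells, and at 0 in the T cells of both libraries. Cdh5, the endothelial cadherin, was at 127 CPM in both selected populations and Fcrla, an Fc receptor-like protein of the B lineage, at 247 and 341 CPM. These are description, since the T cells and the selected cells were separated by transcripts.

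Few cells lay near the threshold. In the ZsG- library 1 kept barcode with at most 1 CD3 UMI had 2 Siglech UMIs, none had 3 and 2 had 4. In the ZsG+ library 14 had 2, 9 had 3 and 10 had 4. The 14 barcodes just outside had median UMIs of 2 for Ccr9, 0 for Klk1 and 17.5 for Tcf4, the 9 just inside had 1, 0 and 12, and the 493 ZsG+ cells with at least 10 Siglech UMIs had 14, 9 and 14. On the other side of the CD3 limit, 12 ZsG+ barcodes had at least 3 Siglech UMIs and more than 1 CD3 UMI, with medians of 15010 UMIs, 25.5 CD3 UMIs and 23.5 receptor UMIs, and no ZsG- barcode did. Scrublet, a doublet caller, marked 3 of 948 and 17 of 1879 kept barcodes, of which 0 and 3 were selected cells. The ZsG- call rate of 0.316% is low, so the caller says little there, and doublets were kept.

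The selected cells of both gates were of similar depth. The median was 8831 UMIs (range 6190 to 18343) and 2658 genes per ZsG- cell and 8292 UMIs (4124 to 30753) and 2510 genes per ZsG+ cell, against 5829 and 6634 UMIs per T cell. Mitochondrially encoded genes took a median of 6.42% and 6.31% of the UMIs of a cell. In the ZsG+ library the deepest 25% of cells (9245 to 30753 UMIs) had 1611 CPM of Siglech, 1214 CPM of Klk1 and 615 CPM of the macrophage genes C1qa, C1qb, C1qc and Lyz2 together, and the shallowest 25% (4124 to 7434 UMIs) had 2318, 1936 and 85.3 CPM. In the 2 middle groups of ZsG+ cells these macrophage genes stood at 19.8 and 20.9 CPM, so they did not follow depth steadily, and 4 of the cells above 9245 UMIs held 396, 254, 215 and 132 such UMIs. In the ZsG- library they stood at 0, 7.93, 17.5 and 51.2 CPM from the shallowest to the deepest 25%, where Klk1 stood at 629, 1404, 1015 and 1113 CPM and so was lowest in the shallowest cells. Without the cells that held 2 or more macrophage UMIs, 88 genes were past 2-fold higher and 46 lower in ZsG+ cells, and 83 and 37 of these were also past 2-fold with all selected cells.

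Siglech stood at 2349 CPM in ZsG- and 1924 CPM in ZsG+ cells, with medians of 21 and 16 UMIs per cell. Ccr9 stood at 1948 and 1738 CPM, and its median was 12 UMIs per cell in both gates. Tcf4 stood at 2022 and 1703 CPM, a log2 ratio of ZsG+ over ZsG- of -0.25 (-0.31 to -0.18). Ccr9 and Tcf4 differed by less than 1.5-fold between gates, and Siglech, which chose the cells, is given as description only.

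Of the 4 markers, Klk1 had the ratio farthest from 0, and in the opposite direction. It stood at 1055 CPM in ZsG- and 1722 CPM in ZsG+ cells, a log2 ratio of 0.71 (0.62 to 0.80), with medians of 4 and 8 UMIs per cell and highest cells of 48 and 144. The ranges of single cells overlapped. The ratio ran from 0.68 to 0.80 over 13 settings of the analysis. Klk1b27, a neighboring kallikrein, stood at 173 and 236 CPM, a log2 ratio of 0.45 (0.23 to 0.68). Reads of such similar kallikrein genes may be shared between copies, so the split between them is uncertain.

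**Figure D2:**
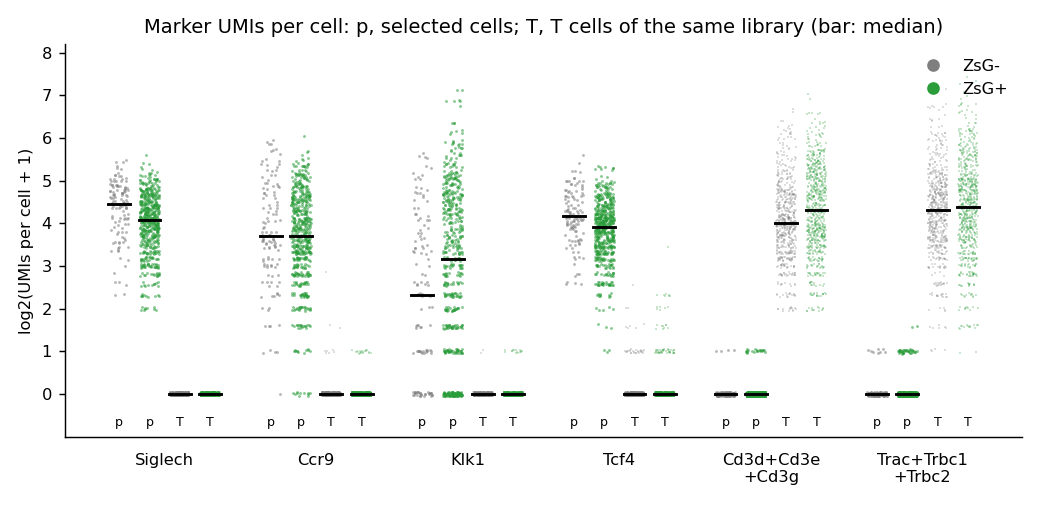
UMIs per cell as log2(UMIs + 1) (vertical axis) for Siglech, Ccr9, Klk1, Tcf4, the CD3 genes and the T cell receptor constant regions, with each point 1 cell and each bar a median, in selected cells (p) and T cells (T) of the ZsG- (gray) and ZsG+ (green) libraries of the T cell sort. In selected cells the medians are 21 and 16 UMIs for Siglech, 12 and 12 for Ccr9, 4 and 8 for Klk1 and 17 and 14 for Tcf4, with ZsG- first, and the gates overlap, while the T cells lie high only for the CD3 genes and the receptor.

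Gene by gene, the selected cells of the gates were close. Of the 7517 genes compared, those whose UMIs in the 2 libraries came to 50 or more, 6747 (89.8%) lay within 1.5-fold, and the median log2 ratio was -0.06. The ZsG+ cells were at least 2-fold higher in 104 genes (1.38%) and at least 2-fold lower in 44 (0.585%). ZsG+ cells supplied 5267921 UMIs and ZsG- cells 1116477, so low genes high in ZsG+ cells passed the minimum of 50 more readily. The excess of 104 over 44 was therefore favored by that minimum. Of the 3974 genes with at least 200 UMIs, 15 were past 2-fold higher and 2 lower. In cells thinned to 2000 UMIs, 3782 genes were compared. Of these 48 were higher, 7 of them among the 104, and 37 lower, 2 of them among the 44. Without the highest cell of each gene in each library, 127 were higher and 23 lower. In 30 of the 104 higher genes, more than 50% of the ZsG+ UMIs lay in 6 cells, or 1% of the cells. A value past 2-fold is a description of 2 libraries and does not show a difference between conditions.

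The 10 genes ranked highest in ZsG+ cells were Ccl5, Lyz2, S100a4, Cxcl10, Cxcl2, Ccl2, Iglc1, Iglc2, Serpinb6b and Tnf. The ranking took genes detected in 5% or more of the cells of either gate, and the first 7 passed only through the ZsG+ cells, where they are high, so their direction was in part set by that filter. For several of them single cells set the value. Ccl5, a chemokine of T and NK cells, stood at 13.4 and 143 CPM, and 666 of its 755 ZsG+ UMIs lay in 1 cell. Cxcl10, an interferon-induced chemokine, had 231 of 301 ZsG+ UMIs in 1 cell, and Ccl2, a monocyte-attracting chemokine, 275 of 366. Lyz2, the lysozyme of myeloid cells, stood at 18.8 and 170 CPM with 94.3% of its ZsG+ UMIs in 6 cells. Without the cells that had 2 or more UMIs of C1qa, C1qb, C1qc and Lyz2, the log2 ratio of Cxcl10 was 1.06 instead of 2.91 and that of Ccl5 4.65 instead of 3.37. For Lyz2, which that limit counts, it was 1.16 instead of 3.15, a fall that the limit itself brings. Without its highest cell in each library the log2 ratio was 1.54 for Ccl5, 1.73 for Cxcl10, 3.69 for Ccl2 and 4.92 for Lyz2. Ccl5 had a UMI in 5 of 123 ZsG- and 57 of 616 ZsG+ cells and Lyz2 in 5 and 56. The ratios of Ccl5 and Cxcl10 were thus lower without that cell and those of Ccl2 and Lyz2 higher.

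Every gene of that ranking was past 2-fold in all 13 settings except Cxcl10, which was in 12. The genes were picked as highest in these data, and the settings did not repeat the ranking or its filter. Staying past 2-fold therefore says little about stability. Tnf, an inflammatory cytokine, stood at 38.5 and 110 CPM, a log2 ratio of 1.49 (1.06 to 1.99), with a UMI in 15.4% and 22.7% of cells, or 7.32% and 10.7% after thinning. Serpinb6b, a serine protease inhibitor, stood at 19.7 and 65.5 CPM, a log2 ratio of 1.70 (1.11 to 2.43). Iglc2, an immunoglobulin lambda constant region, stood at 43.9 and 145 CPM, a log2 ratio of 1.71 (1.31 to 2.17), with thinned shares of 3.25% and 11.7%. Of the 124 Cxcl2 UMIs in ZsG+ cells 76 lay in 1 cell, and its log2 ratio was 1.58 instead of 3.40 without the cells that had 2 or more macrophage UMIs. That of S100a4 was 1.34 instead of 3.103 without the cells of highest doublet score. Lambda constant regions are near-identical copies of one another, so reads may be split between Iglc1, Iglc2 and Iglc3.

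The 10 genes ranked lowest in ZsG+ cells were Il12a, Gpr65, Slc20a1, Hsph1, Cadm1, Gpr174, Il6st, Cd209a, Golga1 and Ndrg1. The same detection filter of 5% of the cells of either gate applied to this ranking. The direction of any gene that passed only through the ZsG- cells was therefore in part set by that filter. Il12a, the p35 subunit of interleukin 12, stood at 56.4 CPM in ZsG- and 17.8 CPM in ZsG+ cells, a log2 ratio of -1.66 (-2.14 to -1.18), with a UMI in 26.0% and 9.42% of cells, or 13.01% and 3.08% after thinning. Thinned T cells showed no Il12a UMI. Gpr65, a proton-sensing receptor, stood at 88.7 and 35.7 CPM, a log2 ratio of -1.32 (-1.67 to -0.95), and was seen in 40.7% and 19.0% of cells, or 13.01% and 8.28% after thinning. Il12a and Gpr65 rested on many cells of both gates, and each stayed past 2-fold lower in all 13 settings. Both were picked as lowest in these data, and the settings did not repeat the ranking, so this says little about stability.

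Cd209a, a lectin of dendritic cells also used as a marker of conventional type 2 dendritic cells (cDC2), stood at 54.6 and 22.97 CPM, a log2 ratio of -1.26 (-1.71 to -0.78), but at -0.82 without its highest cell in each library. Hsph1, a heat shock protein, had a log2 ratio of -1.31 and reached -0.96 without the cells of highest doublet score. Ndrg1, a hypoxia-responsive gene, went from -1.56 to -0.70 without its highest cell. Bcl2l11, the pro-apoptotic BIM, did not reach 2-fold lower, at 95.8 and 50.1 CPM, a log2 ratio of -0.94 (-1.27 to -0.60).

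**Figure D3:**
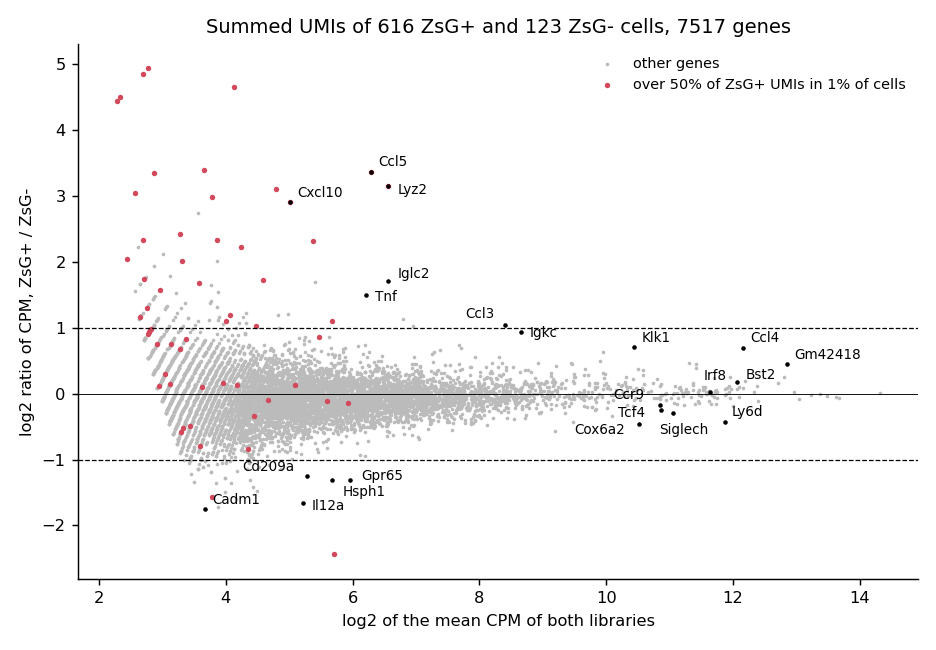
Log2 ratio of CPM of ZsG+ over ZsG- selected cells (vertical axis) against the log2 of the mean CPM of both libraries (horizontal axis) for 7517 genes, 1 point per gene. Dashed lines mark 2-fold, past which lie 104 genes above and 44 below, and red points are the 57 genes with more than 50% of their ZsG+ UMIs in 1% of cells, most of them at low levels.

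Genes of pDC identity were detected in both gates. Of 20 compared genes of a list of pDC surface proteins and enzymes, which includes Siglech, none was past 2-fold in either direction, against 1.38% and 0.585% of all compared genes, with a median log2 ratio of 0.04 against -0.06 over all genes. A count of 0 among 20 is near those shares and is no result about the list. Cox6a2, the muscle-type cytochrome c oxidase subunit also known in pDCs, stood at 1699 and 1239 CPM (log2 -0.46) and Ly6d, a lymphoid surface protein, at 4281 and 3192 CPM (log2 -0.42). Bst2, the tetherin recognized by antibodies to pDCs, was at 4005 and 4520 CPM (log2 0.17). Dntt was lower at 130 and 91.3 CPM (log2 -0.51, -0.78 to -0.23). Within the list, members thus lay on either side of 0.

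Of 13 compared transcription factors of dendritic cells, 2 were past 2-fold higher, Id2 and Id3, against 1.38% of all compared genes, and none lower, with a median of -0.01. Irf8, a factor required for dendritic cell development, stood at 3181 and 3222 CPM, and Bcl11a, a zinc finger factor of lymphoid and pDC development, at 549 and 623 CPM. Spib stood at 327 and 298 CPM and Runx2 at 561 and 496 CPM. Id2 and Id3, inhibitors of E proteins, were at 14.3 and 30.2 CPM and at 9.85 and 22.02 CPM. In Id2 and Id3, 52.2% and 50.9% of the ZsG+ UMIs lay in 6 cells.

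Transcripts of the sensing machinery were detected in both gates. None of its 19 compared members was past 2-fold (median -0.0012), which is also near the 1.38% and 0.585% of all compared genes. Tlr7, the endosomal RNA receptor, stood at 134 and 155 CPM, Tlr12 at 57.3 and 63.4 CPM, and Unc93b1, the chaperone that carries these receptors, at 527 and 568 CPM. Tlr9, the DNA receptor, had 5 and 45 UMIs, 4.48 and 8.54 CPM, with a log2 ratio of 0.81 (-0.40 to 2.62) that counting error alone could give.

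Interferon transcripts themselves were rare. Of 17 genes in a list of type I interferons and their receptor, which also holds the type III (lambda) interferon Ifnl2, 9 could be compared, 1 was past 2-fold higher, against 1.38% of all compared genes, and none lower (median -0.01). The 1 was Ifnl2, whose ratio rests on the pseudocount because its ZsG- value is 0, and 34 of its 53 ZsG+ UMIs lay in 1 cell. No UMI was found of 6 others, Ifna1, Ifna4, Ifna5, Ifna6, Ifna9 and Ifna13. Ifnb1 was seen in 2 of 123 ZsG- and 8 of 616 ZsG+ cells, Ifna2 in 1 and 5. Of the 48 Ifnb1 UMIs in ZsG+ cells, 38 lay in 1 cell. Ifnl2 was seen in 16 of 616 ZsG+ cells (2.597%, 1.49 to 4.18%) and in no ZsG- cell, where 0 of 123 allows a share of cells with a UMI of up to 2.44%, a limit inside the ZsG+ interval. At this depth a difference between gates in the share of cells with these transcripts was not detectable.

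Of 28 compared interferon-stimulated genes none was past 2-fold and 20 lay above 0, against 40.8% of all compared genes, with a median of 0.23. Medians above that of all genes (-0.06) were found in 16 of the 19 lists of gene programs, so they do not set single lists apart. Isg15 stood at 355 and 444 CPM (log2 0.32) and Ifitm3 at 258 and 378 CPM (log2 0.55). MHC class I genes had a median of 0.20 over 13 and none past 2-fold, with H2-K1 at 2301 and 3155 CPM (log2 0.46, 0.40 to 0.52) and H2-Q7 at 778 and 1202 CPM (log2 0.63, 0.52 to 0.73). In the T cells of the same libraries, H2-K1 and H2-Q7 differed by 0.03 and -0.03. Interferon gamma-induced genes had 3 of 17 past 2-fold higher, Ciita, Cxcl10 and Cxcl9, against 1.38% of all compared genes (median 0.16). Cxcl9 had 114 of 179 and Cxcl10 231 of 301 ZsG+ UMIs in 1 cell. Class II genes had 1 of 9, Ciita (median 0.17), with Cd74 at 2511 and 2810 CPM. The members of the H2-K and H2-Q families are similar in sequence, so reads may be shared among them.

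Among chemokines, Ccl4 and Ccl3 were higher in ZsG+ cells, and 10 of the 17 compared genes of migration and chemokines lay below 0, as did 59.2% of all compared genes. Ccl4, a chemokine that attracts T cells and monocytes, stood at 3504 CPM in ZsG- and 5689 CPM in ZsG+ cells, a log2 ratio of 0.70 (0.65 to 0.75), with medians of 9 and 27 UMIs per cell and highest cells of 259 and 451. Its relative Ccl3 stood at 221 and 456 CPM, a log2 ratio of 1.04 (0.85 to 1.24) that was past 2-fold in 11 of 13 settings and 0.95 without cells with a T cell receptor UMI. In the T cells, Ccl4 and Ccl3 differed in the same direction, by 1.09 and 1.55. The list had 4 past 2-fold higher, Ccl3, Ccl5, Ccr7 and Cxcl10, against 1.38% of all compared genes, none lower and a median of -0.04. Ccl5 and Cxcl10 had 666 of 755 and 231 of 301 ZsG+ UMIs in 1 cell, and Ccr7 84.7% in 6 cells.

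The counts of the other lists also stand beside 1.38% higher and 0.585% lower of all compared genes. Of these lists, 10 costimulatory and inhibitory genes had 1 past 2-fold higher (Tnf, median 0.20) and none lower, and 17 lysosome and uptake genes had 2 higher, Cd9 and Cd63 (median 0.16). Cd63 was at 0 in ZsG- cells and had 89.7% of its ZsG+ UMIs in 6 cells. Of 14 apoptosis and survival genes 2 were higher, Bcl2a1b and Bcl2a1d (median 0.07), with 86.9% and 87.5% of their ZsG+ UMIs in 6 cells. Heat shock and immediate early genes had 1 higher, Hspa1a, and 1 lower, Hsph1, among 19 (median 0.14). Hspa1a had a UMI in 5 of 123 ZsG- and 21 of 616 ZsG+ cells, with 70.4% of its ZsG+ UMIs in 6 cells. Glycolysis and hypoxia genes had 1 lower, Ndrg1, among 18 (median 0.29), with Gapdh at 795 and 1125 CPM (log2 0.50). The secretory machinery, with 18 genes, and nuclear-encoded oxidative phosphorylation, with 34, had none past 2-fold and medians of 0.01 and -0.03. The 13 mitochondrially encoded genes all lay below 0 (median -0.14), against 59.2% of all compared genes. With normalization factors from edgeR the median of these 13 was -0.058. Of S phase genes 10 were compared (median -0.25) and of G2 and M phase genes 1 (-0.10).

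**Figure D4:**
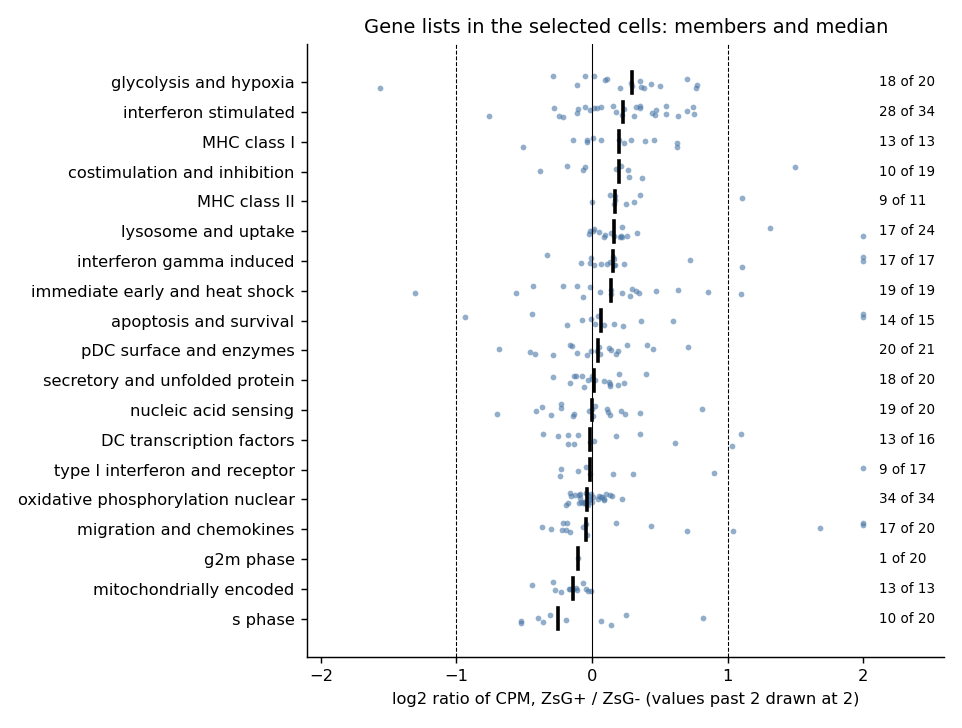
Log2 ratio of CPM of ZsG+ over ZsG- selected cells (horizontal axis) for each compared gene (point) of 19 lists, 1 row per list, with a bar at the median, the number of genes compared at the right and values past 2 drawn at 2. The medians lie between -0.25 for S phase genes and 0.29 for glycolysis and hypoxia genes.

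Transcripts of other cell types were measured beside these results. Counts past 2-fold in this paragraph and the next stand beside 1.38% higher and 0.585% lower of all compared genes. The 13 macrophage markers summed to 118 and 346 CPM, and 5 of 8 compared markers, C1qa, C1qb, C1qc and Lyz2 among them, were past 2-fold higher in ZsG+ cells. The list had 132 ZsG- and 1823 ZsG+ UMIs, so these 5 reached the minimum of 50 UMIs mostly through ZsG+ cells, where they are high. Their direction was therefore in part set by that minimum. In ZsG- cells the most abundant macrophage marker was Apoe, at 63.6 CPM against 57.9 CPM in ZsG+ cells, and in ZsG+ cells it was Lyz2. Their part in the other results was not tested, beyond the values given without these cells. Of the selected cells, 1 of 123 and 15 of 616 had 2 or more UMIs of C1qa, C1qb, C1qc and Lyz2, and 0 and 5 had 50 or more. Those 5 ZsG+ cells held 396, 254, 215, 132 and 68 such UMIs. T cell markers summed to 802 and 796 CPM, Il7r being the top gene at 272 and 254 CPM and none of 6 compared past 2-fold. Cd4, which mouse pDCs can express, was at 201 and 183 CPM, and Cd3e, which the rule used, was at 0 and 0.949 CPM. B cell markers summed to 1266 and 1492 CPM with Ighm at the top, while Ms4a1 was at 0.

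Natural killer cell markers summed to 255 and 272 CPM (Klrd1 at the top, 1 of 3 compared past 2-fold higher, Gzma). Of the 59 Gzma UMIs in ZsG+ cells 52 lay in 1 cell, and 1.63% of ZsG- and 1.30% of ZsG+ cells held any. Conventional type 1 dendritic cell (cDC1) markers summed to 153 and 136 CPM, with Clec9a at the top, Cadm1 past 2-fold lower and Itgae at 0. The cDC2 markers summed to 488 and 472 CPM with Clec10a at the top, Cd209a past 2-fold lower and Ffar2 at 0. Mature dendritic cell markers summed to 12.5 and 50.5 CPM with Ccr7 at the top, and Ccl17 was at 0. All 3 compared genes (Ccr7, Fscn1 and Il4i1) were past 2-fold higher, against 1.38% of all compared genes. The markers of this list had 14 and 266 UMIs, and 8.13% and 9.25% of cells held any. With 14 ZsG- UMIs, its genes reached the minimum of 50 UMIs only through ZsG+ cells, where they are high. Their direction was therefore in part set by that minimum. Of the ZsG+ UMIs of Ccr7, Fscn1 and Il4i1, 84.7%, 94.8% and 69.2% lay in 6 cells. Monocyte markers summed to 3799 and 4533 CPM, nearly all Ly6c2, which is also in the list of pDC genes, with S100a4 past 2-fold higher and Treml4 and Ace at 0. Transitional dendritic cell markers summed to 2232 and 3048 CPM, nearly all Ly6a. Neutrophil genes summed to 2.69 and 0.759 CPM, stromal genes to 99.4 and 72.9 CPM with Pecam1 at the top, and pigment genes, which mark melanoma cells, to 4.48 and 4.18 CPM with Tyr at 0. Basophil, mast cell and erythroid genes were at 0.

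Hardly any selected cell met the rule for cycling cells, although 33.3% and 26.6% held a UMI of at least 1 G2 or M phase gene. No ZsG- cell of 123, which by the limit of 3 cells allows up to 2.44%, and 1 ZsG+ cell of 616 (0.162%, 0.00411 to 0.901%) had 3 or more UMIs of Mki67 and Top2a, the proliferation markers. That cell had 5012 UMIs, 7 Siglech UMIs and 68 macrophage UMIs. After thinning to 2000 UMIs, 3 of 123 cells (2.44%, 0.506 to 6.96%) and 6 of 616 (0.974%, 0.358 to 2.11%) had such a UMI. These intervals overlapped, and under the rule of 3 UMIs the limit of 2.44% for ZsG- cells lay above the ZsG+ share. The gates could therefore not be ordered either way. Of the T cells, 38 of 657 (5.78%) and 105 of 763 (13.8%) met the rule. With 1 cell, a profile of cycling against other selected cells could not be made.

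The genes that varied most from cell to cell beyond counting, by the variance over the mean in thinned cells, were Gm42418, Ccl4, Malat1, Ccl3, Hsp90aa1, Klk1, Jun, Cd74, Ly6c2 and Ly6d. Counting alone gives a ratio of 1. The ratio was 5.55 and 34.4 for Gm42418, 15.7 and 19.6 for Ccl4, 6.41 and 8.13 for Ccl3 and 3.50 and 6.69 for Klk1 in ZsG- and ZsG+ cells. Gm42418 is a gene model that overlaps ribosomal RNA sequence, and Malat1 is a nuclear long noncoding RNA. The genes that took the most UMIs, after mitochondrial and ribosomal protein genes were left out, were Malat1, Tmsb4x, Actb, Fth1, Gm42418, Tpt1, Fau, Tyrobp, Plac8, Ccl4, Bst2, Ly6c2, Ppia, Ly6d and B2m.

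Klk1 marked a range within the cells that was seen in both gates. Cells without a Klk1 UMI (29 ZsG- and 113 ZsG+) were set beside the top 25% by Klk1 UMIs (31 with 15 to 48 UMIs and 159 with 22 to 144), a split made after values had been seen. Median depth was 8857 and 9104 UMIs in ZsG- and 8568 and 8413 UMIs in ZsG+ cells, so depth differed little. Iglc3, a lambda constant region, was at 446 CPM without Klk1 and 1244 CPM with high Klk1 in ZsG- cells and at 272 and 1478 CPM in ZsG+ cells. Ccl4 went from 1373 to 5281 CPM and from 1912 to 8849 CPM. Ccr9 went from 1262 to 2418 CPM and from 910 to 2097 CPM, and H2-Aa, a class II gene, from 419 to 1525 CPM and from 510 to 1549 CPM. Siglech differed little by Klk1 in ZsG- cells, at 2326 and 2438 CPM, and more in ZsG+ cells, at 1386 and 1887 CPM.

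Another set of genes ran against Klk1. Tmsb10, an actin-binding peptide, went from 942 CPM without Klk1 to 348 CPM with high Klk1 in ZsG- and from 779 to 268 CPM in ZsG+ cells. Lgals3, galectin 3, went from 313 to 56.9 CPM and from 618 to 118 CPM, Apod, a lipocalin, from 141 to 53.5 CPM and from 468 to 37.0 CPM, and Ms4a6c from 153 to 26.8 CPM and from 296 to 25.9 CPM. Isg15 did not run the same way in both gates, at 195 and 515 CPM in ZsG- and 514 and 431 CPM in ZsG+ cells. Across single cells thinned to 2000 UMIs, the Pearson correlation of Klk1 with Iglc3 was 0.34 (123 ZsG- cells) and 0.46 (616 ZsG+ cells), that of Ccl4 with Ccl3 0.53 in both, that of H2-Aa with Cd74 0.68 and 0.72, and that of Siglech with Lgals3 -0.34 and -0.29. These cells share a library, and the correlations are given as description.

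**Figure D5:**
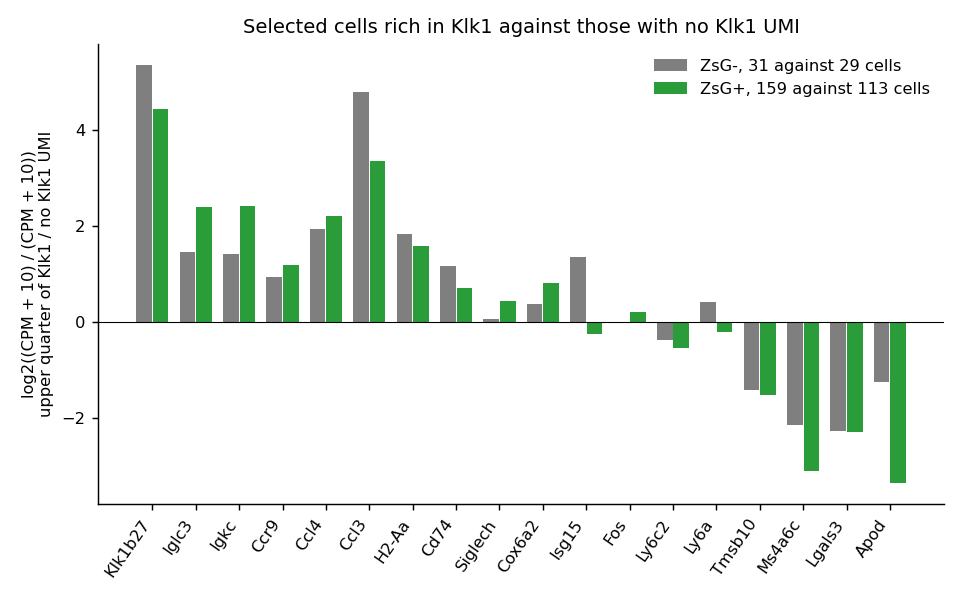
Log2 ratio of CPM, each with 10 added, of the top 25% of selected cells by Klk1 UMIs over selected cells with no Klk1 UMI (vertical axis) for 18 genes, in ZsG- (gray, 31 over 29 cells) and ZsG+ (green, 159 over 113 cells) libraries. Bars of Iglc3, Ccl4, Ccr9 and H2-Aa lie above 0 in both libraries, those of Tmsb10, Ms4a6c, Lgals3 and Apod below 0, and those of Isg15 and Ly6a differ in direction.

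Cells chosen by the same rule in the CD45 sort gave another pair of libraries, with limits. The tables were made separately, by Cell Ranger 6.1.2 and 7.0.0 according to their headers, and list 31053 and 32285 genes, with 30406 gene IDs in both. Of the 33 ZsG+ cells of the CD45 sort, 27 (81.8%) had 2 or more UMIs of C1qa, C1qb, C1qc and Lyz2, against 10 of 218 ZsG- cells, and Klk1 was seen in 14 of the 33. Klk1 stood there at 1185 CPM in ZsG- and 389 CPM in ZsG+ cells, a log2 ratio of -1.60, and Ccl4 at 2342 and 1203 CPM, a ratio of -0.96. As assigned, the directions of Klk1 and Ccl4 were opposite between the sorts, and with the libraries of the T cell sort exchanged they would be the same. Siglech, which the rule used, stood at 1888 and 920 CPM. Ly6a was higher in the ZsG+ cells of both sorts as assigned, with log2 ratios of 0.46 and 0.42, and would differ in direction after that exchange. The T cell values given with the assignment apply here too. The part of the macrophage UMIs in the ratios of the CD45 sort was not tested.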

How the data were processed

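Single-cell RNA was captured with the 10x Genomics 3′ v3.1 chemistry. The deposited tables are UMI counts, 1 row per gene and 1 column per barcode. Per the methods and file headers, the authors aligned reads to mm10 with Cell Ranger and joined the 2 libraries of a sort with its aggr command. The sources used here do not say whether aggr evened out depth. The suffix of a barcode gave its library.

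Counts were summed over the selected cells of a library and given as CPM. Log2 ratios used a pseudocount of 0.5 UMIs, and their intervals are exact conditional Poisson intervals, those of shares Clopper-Pearson. A gene was compared with at least 50 UMIs over both libraries. No test was run, since each gate had 1 library. Cells were thinned to 2000 UMIs for shares. Doublets were scored by Scrublet in scanpy 1.11.5 (expected rate 5%) and kept. Python 3.11.15 and R 4.3.3 were used, with edgeR 4.0.16 only for normalization factors as an alternative. The interval code was tested on simulated data. The criterion of that test was changed from 1 draw to many after a single draw missed it.

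The cells, gene lists and comparisons were chosen with earlier results of these data known. Named genes were members of the lists, the 10 highest and 10 lowest ZsG+ over ZsG- by the interval bound nearest 0 among genes detected in 5% or more of a library's selected cells, the 15 with most UMIs, the 10 most variable and the 10 highest over T cells. Apod, Iglc3, Lgals3, Ms4a6c and Tmsb10 were chosen after their values were seen, as were the Klk1 split, the gene pairs correlated, the promoter motif and the alternative without the highest cell. Promoter sequences are from RefSeq. Gene positions are from the annotation of GRCm38. Values of some single list members are not reported here.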

Additional observations from a re-analysis of the deposited data

Results flagged for a closer look

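With the libraries of the T cell sort as assigned, the share of selected cells differed in direction between the sorts. The log2 ratio of ZsG+ over ZsG- was 1.337 in the T cell sort and -2.623 in the CD45 sort. Within the selected cells, Klk1 had log2 ratios of 0.71 in the T cell sort and -1.60 in the CD45 sort, and Ccl4 had 0.70 and -0.96. Serpinb6b had 1.70 and -2.59, and Il6st ran the other way with -1.48 and 1.75. With the 2 libraries of the T cell sort exchanged, as their names would have it, the share and these 4 genes would each have the same direction in both sorts, which for the genes follows from picking them for opposite directions. Ly6a (0.46 and 0.42) and Apod (1.13 and 1.88), higher in ZsG+ cells of both sorts as assigned, would then differ in direction. How many genes ran the same or opposite ways in the sorts is not given here, so these genes do not show which is common. T cell cycling and ribosomal protein shares under the assignment used are given where the libraries are described. None of these differences between sorts was tested, since each gate had 1 library, and the genes were picked out because their intervals lay apart on opposite sides of 0 by a bound set after values were seen. The CD45 sort contributed 33 ZsG+ cells, 27 of them with 2 or more macrophage UMIs, and the part of those UMIs was not tested.

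Outside the selected cells, 12 ZsG+ barcodes of the T cell sort had at least 3 Siglech UMIs and more than 1 CD3 UMI, while no ZsG- barcode did, which allows a share of up to 0.316% of kept barcodes. Their median depth was 15010 UMIs against 8292 for selected ZsG+ cells.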

How the results depend on the processing

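No paired analysis was possible because each gate had 1 library. Of 89 recomputed values of the main comparisons 80 stayed within their error or within 1.5 times the main count and 9 moved, and no gene recomputed by name that was past 2-fold changed sign. A count of genes within 1.5 times does not say that the genes are the same. Some of the 80 could hardly move, so the tally says little about stability. A count of 0 cycling ZsG- cells stays 0 under stricter limits, and a minimum of 500 genes kept the same 123 and 616 cells. The genes recomputed by name that were past 2-fold were mostly picked as extreme in these data, so keeping their sign also says little. No ZsG- cell met the cycling rule of 3 UMIs, which allows up to 2.44%, and 2.44% held at least 1 UMI after thinning. The gates could not be ordered by either rule. The share of cycling ZsG+ cells, 0.162%, was 0 without the 5% of cells of highest Scrublet score, 0 with a limit of 5 UMIs and 0.974% with 1 UMI after thinning. In thinned cells 3782 genes were compared, 48 were higher, 7 of them among the 104, and 37 lower, 2 of them among the 44. Without cells with 2 or more macrophage UMIs 88 were higher, 83 of them among the 104, and 46 lower, 37 of them among the 44. The 104 higher genes became 243 with a minimum of 20 UMIs and 15 with 200. The 44 lower genes became 174 with a minimum of 20 UMIs, 2 with 200 and 23 when each gene was taken without its highest cell in each library, an alternative chosen after seeing the data. The higher genes made up 70.3% of genes past 2-fold, but 56.5% in thinned cells, 84.7% without the highest cell, 58.3% with a minimum of 20 UMIs and 88.2% with 200. The cause was not tested, except that the minimum sets how many low genes enter. It also favors low genes that are high in ZsG+ cells, which supplied more of the UMIs. No list had a median past 2-fold under any setting, which says little at medians this near 0. The S phase median ran from -0.31 to 0.30, and the medians of transcription factors, sensing, type I interferon, migration, secretory, oxidative phosphorylation and G2 and M phase genes also fell on both sides of 0. The ZsG- values rest on 1116477 UMIs of 123 cells and the ZsG+ values on 5267921 UMIs of 616 cells.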
